A study of Mus musculus with 7 samples.

Results

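The endocannabinoid genes described here are 9 of the 18335 symbols in the deposited table: the cannabinoid receptor gene Cnr1, the gene of its binding protein Cnrip1, and 7 enzyme genes that make or break down the receptor's lipid ligands (Dagla, Daglb, Mgll, Abhd6, Abhd12, Napepld and Faah). They were taken by exact gene symbol, and all 9 were present and passed the filter on low values. The set was chosen by the Pomc against Npy difference of Cnr1, which was already known, and filled up with the other genes of the pathway. The differences of its members in this contrast are therefore a description and support nothing. RNA came from Pomc neurons (4 libraries) and Npy neurons (3 columns), sorted by fluorescence from dissociated arcuate nuclei of mouse embryos at E15.5, with 1 ng of total RNA per library. Neither group carries a treatment. Of strain, genotype, sorting reporter and the animals behind each library the sources used here give nothing, and the spread between libraries may be technical. Npy replicate 3 can be computed from its neighbours: for each of 15223 genes it is their average times a whole percent between 95 and 105, within 1e-04 percentage points. It was left out, and n is 4 for Pomc and 2 for Npy.

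CB1, the protein of Cnr1, is a receptor of neurons that couples to inhibitory G proteins and is the main target of cannabinoids in the brain. Its ligands are lipids made on demand. 2-arachidonoylglycerol (2-AG) is made by the diacylglycerol lipases of Dagla and Daglb and is broken down by the hydrolases of Mgll, Abhd6 and Abhd12. Anandamide can be made by the phospholipase of Napepld and is broken down by the amidase of Faah. In the hypothalamus this system promotes feeding, and in the embryo CB1 and the diacylglycerol lipases take part in axon growth.

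Values were taken as TPM, transcripts per 1000000 scaled by gene length, from the values themselves, since the table names no unit. Orders and ratios between genes rest on this reading. Differences are Pomc minus Npy on log2(TPM + 1) from limma, with the standard error (SE) of the fit. A total of 13845 genes with at least 1 TPM in at least 2 libraries were tested, and a gene was called at a limma adjusted p (Benjamini-Hochberg) under 0.05. The table holds no read counts, so the depth behind a value is not known. Genes above 0 numbered 12493 to 14656 in the Pomc group and 14933 and 12922 in the Npy group, with Pomc replicate 4 the lowest. Of the sort markers, Pomc stood at 352 to 770 TPM in the Pomc group against 24.0 and 59.4 TPM, Npy (not called, limma adjusted p = 0.418) at 728 and 513 TPM in the Npy group against 2.11 to 152 TPM, and Agrp overlapped at 5.53 and 1.75 TPM against 0 to 6.82 TPM. The 6 pan-neuronal markers summed to 3644 to 4141 TPM in the Pomc group and to 3257 and 2740 TPM in the Npy group.

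Cnr1 was the only member whose libraries did not overlap between the neuron types. It stood at 97.7, 115, 97.8 and 110 TPM in Pomc replicates 1 to 4 and at 23.1 and 23.1 TPM in Npy replicates 1 and 2. All 4 Pomc libraries lay above both Npy libraries, and the lowest Pomc library was far above the pair of nearly equal Npy values. The means were 105 ± 8.73 TPM (SD, n = 4) and 23.1 TPM (n = 2), a 4.55-fold ratio of means and a log2 difference of 2.13 ± 0.21 (SE), with a 95% interval of 1.65 to 2.62. In each Pomc library Cnr1 exceeded 88.1 to 89.8% of all genes in the table, and in the Npy group 60.1 and 62.9%. Among the Pomc libraries the SD of Cnr1 on log2(TPM + 1), 0.12, was at the percentile 4.39 of all tested genes. These genes span all levels, and Cnr1 was not set against genes of a like level. Of the 9 members, 1 was called and 1 had groups that did not overlap, in both cases Cnr1 with higher values in Pomc neurons. Over all tested genes 0.412% were called (0.289% as higher in Pomc neurons) and 15.9% did not overlap (8.05% with the Pomc libraries higher). Cnr1 entered the set because of this contrast, so nothing is read from these counts.

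**Figure D1:**
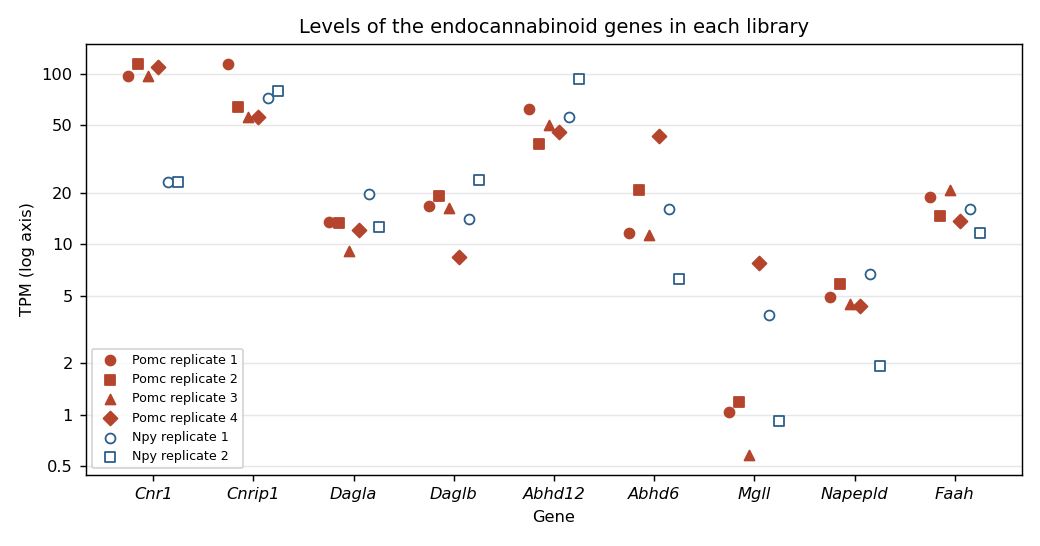
TPM (log axis) of the 9 genes in each of the 6 libraries, with filled red symbols for Pomc and open blue symbols for Npy libraries. The Cnr1 points fall into separate groups at 97.7 to 115 and at 23.1 TPM, while in the other 8 genes the groups overlap.

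Cnr1 lies on the plus strand of chromosome 4, from 33924593 to 33948831 (GRCm38, the mm10 build, GENCODE M21). It is protein-coding, with 3 annotated transcripts and no exon shared with another gene. RefSeq places the most upstream of its starts before the GENCODE start. The 250 bases upstream of that start (chr4:33924014-33924263, plus strand, RefSeq, GRCm38.p6) are shown because Cnr1 is the member that stood apart. Capitals mark GC boxes, GGGCGG on either strand.

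Cnr1: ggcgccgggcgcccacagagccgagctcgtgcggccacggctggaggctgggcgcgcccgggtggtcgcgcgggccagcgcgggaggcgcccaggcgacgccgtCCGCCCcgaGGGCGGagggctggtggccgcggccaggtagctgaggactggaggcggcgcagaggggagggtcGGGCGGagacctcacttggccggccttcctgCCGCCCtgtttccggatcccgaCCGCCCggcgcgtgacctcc

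This window held 5 GC boxes, and 32.7% of 32851 RefSeq windows of the same length held at least 1. As many or more were found in 1.93% of the windows. G and C made up 79.2% of its bases (median of all windows 52.4%), and it held 36 CG dinucleotides (median 6), which the GC boxes overlap. The windows of the later Cnr1 starts held 0 GC boxes each. They had 28 and 5 CG dinucleotides and 68.8 and 49.2% G and C, so the counts above belong to the most upstream start only. The motif CAAGGTCA was searched on both strands for the NR5A family of nuclear receptors. It was not in the window shown or in the other 10 windows of the 7 members that have one, and 1.33% of all windows held it. These matches describe letters only, and the libraries do not measure binding.

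Cnrip1 encodes the cannabinoid receptor interacting protein, which binds the CB1 tail. It reached 114, 63.7, 55.5 and 55.8 TPM in Pomc replicates 1 to 4 and 72.4 and 79.4 TPM in the Npy group. The groups overlapped, with Pomc replicate 1 above and the other 3 Pomc libraries below both Npy libraries. The log2 difference was -0.14 ± 0.31 (SE), with a 95% interval of -0.84 to 0.57. The ratio of Cnr1 to Cnrip1 TPM within a library was 0.855, 1.80, 1.76 and 1.97 in the Pomc group and 0.319 and 0.291 in the Npy group. Receptor transcripts thus exceeded those of its binding protein in 3 of 4 Pomc libraries and in neither Npy library. Cnrip1 (chromosome 11, 17051586 to 17079371) shares 4.97% of its exon bases with Plek on the opposite strand. Plek stood at 1.97 to 14.8 TPM in the 6 libraries.

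The pair of genes that make 2-AG was at moderate levels in both neuron types. Dagla encodes the alpha lipase, the main source of 2-AG in the adult brain, and stood at 13.5, 13.3, 9.10 and 12.2 TPM in the Pomc group and at 19.7 and 12.6 TPM in the Npy group. Daglb, which encodes the beta form, stood at 16.8, 19.1, 16.4 and 8.45 TPM against 14.1 and 23.8 TPM. Both genes had overlapping groups, and Pomc replicate 4 had the lowest Daglb value. Their log2 differences were -0.38 ± 0.46 (95% interval -1.42 to 0.66) for Dagla and -0.31 ± 0.49 (-1.41 to 0.78) for Daglb.

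The balance between the lipases varied within each group. Dagla made up 44.6, 41.1, 35.6 and 59.1% of the summed TPM of both genes in the Pomc group and 58.3 and 34.7% in the Npy group. The Npy libraries lay at nearly opposite ends of this range. Daglb (chromosome 5, 143464584 to 143505942) shares 24.1% of its annotated exon bases with Rac1 on the opposite strand. Rac1 is abundant, at 218 to 275 TPM, and without stated use of strand the reads of the 2 genes cannot be told apart there. Dagla (chromosome 19, 10245265 to 10304877) shares no exon bases with another gene.

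Of the 3 hydrolase genes of 2-AG, Abhd12, which encodes a membrane hydrolase that also acts on lysophosphatidylserine, had the highest TPM in each library, by a small margin over Abhd6 in Pomc replicate 4. It stood at 62.6, 39.0, 50.1 and 45.7 TPM in the Pomc group and at 55.8 and 93.0 TPM in the Npy group. Only Pomc replicate 1 overlapped the Npy range, and the log2 difference was -0.56 ± 0.30 with a 95% interval of -1.22 to 0.11. Abhd6, whose product cleaves 2-AG at the inner face of the membrane, stood at 11.7, 20.9, 11.4 and 43.2 TPM against 16.1 and 6.22 TPM. Pomc replicate 4 was the highest library and Npy replicate 2 the lowest, and the log2 difference of 0.83 ± 0.64 had a wide 95% interval, -0.60 to 2.27. Without Pomc replicate 4 it was 0.44, without Npy replicate 1 it was 1.45 and without Npy replicate 2 it was 0.21.

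Mgll encodes monoacylglycerol lipase, the chief 2-AG hydrolase of the adult brain, and was the lowest member in both neuron types by mean. It stood at 1.03, 1.18, 0.578 and 7.72 TPM in the Pomc group and at 3.86 and 0.918 TPM in the Npy group. Pomc replicate 4 was above every other library, and Pomc replicate 3 was below the 1 TPM used in the filter. The log2 difference was -0.13 ± 0.87 (95% interval -2.08 to 1.82), -0.67 without Pomc replicate 4 and 0.54 without Npy replicate 1, so its direction was not determined. Of the summed TPM of the 3 hydrolase genes, Mgll made up 0.931 to 7.99% in the Pomc group and 5.09 and 0.917% in the Npy group. Abhd12 made up 47.3 to 83.1% and 73.7 and 92.9%, so that it was the leading hydrolase transcript in all 6 libraries.

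**Figure D2:**
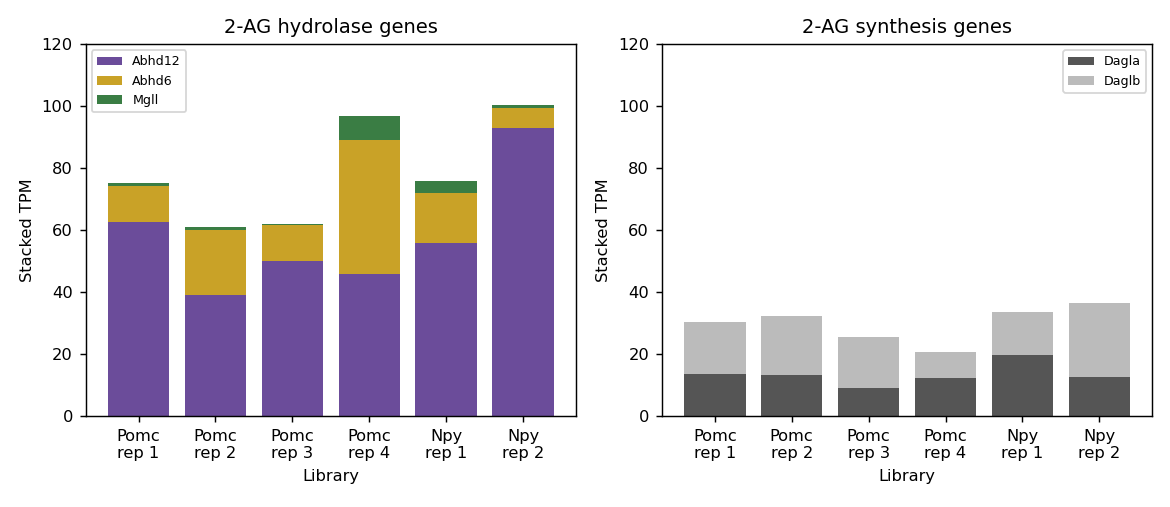
Stacked TPM of the 2-AG hydrolase genes (left) and of the diacylglycerol lipase genes (right) in each library. Abhd12 is the tallest part of every hydrolase bar, and Pomc replicate 4 has the tallest Abhd6 and Mgll parts, 43.2 and 7.72 TPM.

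Markers of microglia, the brain's resident macrophages, were also highest in Pomc replicate 4. The 7 markers summed to 43.0 TPM there, to 0 to 2.27 TPM in the other 3 Pomc libraries and to 3.79 and 9.97 TPM in the Npy group. P2ry12, Csf1r and Cx3cr1 stood at 22.7, 13.1 and 6.55 TPM in that library, and C1qa and Trem2 were listed at 0 in all 6 libraries. C1qb was lower there, at 0.680 TPM against 2.71 and 8.33 TPM in the Npy group, and Aif1 had a value only in Pomc replicate 3, at 2.27 TPM. The 7 radial glia and astrocyte markers summed to 638 TPM in that library, against 257 to 336 TPM in Pomc replicates 1 to 3 and 601 and 404 TPM in the Npy group. Vim alone held 530 TPM of that sum, against 206 and 155 TPM in the Npy group, and Slc1a3 was also highest there, at 11.0 TPM. Fabp7, Nes and Hes5, at 61.6, 26.4 and 9.27 TPM, were lower there than in both Npy libraries. Aldh1l1 and Gfap were listed at 0 there. Red blood cell markers summed to 88.8 TPM in Pomc replicate 4 and to at most 36.0 TPM elsewhere. The part of these cells in the Mgll and Abhd6 values was not tested. Of the other members, Cnr1, Dagla, Cnrip1 and Abhd12 in Pomc replicate 4 were within the range of the other Pomc libraries, and Daglb, Faah and Napepld were below it.

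The anandamide genes overlapped between the groups as well. Napepld encodes the phospholipase D that releases N-acylethanolamines, and stood at 4.93, 5.85, 4.44 and 4.35 TPM in the Pomc group and at 6.68 and 1.94 TPM in the Npy group. The Npy libraries differed 3.44-fold from each other and enclosed all 4 Pomc libraries, which spanned 1.35-fold. Faah encodes fatty acid amide hydrolase and stood at 18.9, 14.7, 20.9 and 13.6 TPM against 16.2 and 11.7 TPM. Their log2 differences were 0.30 ± 0.64 (95% interval -1.15 to 1.75) for Napepld and 0.27 ± 0.43 (-0.70 to 1.23) for Faah. Faah transcripts exceeded Napepld transcripts in every library, 2.52 to 4.71 times in the Pomc group and 2.42 and 6.03 times in the Npy group.

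The order of mean levels in the Pomc group was Cnr1, Cnrip1, Abhd12, Abhd6, Faah, Daglb, Dagla, Napepld and Mgll. Neighbours in this order overlapped in their ranges except Dagla and Napepld, which were separate (9.10 to 13.5 TPM and 4.35 to 5.85 TPM). In the Npy libraries the order was Cnrip1, Abhd12, Cnr1, Daglb, Dagla, Faah, Abhd6, Napepld and Mgll. There the neighbours Abhd12 and Cnr1 did not overlap, at 55.8 and 93.0 TPM against 23.1 TPM in both libraries. Cnr1 was thus first by mean in Pomc neurons and below Cnrip1 and Abhd12 in Npy neurons. The enzymes spanned 0.578 to 62.6 TPM in the Pomc group and 0.918 to 93.0 TPM in the Npy group. The 7 enzyme genes together summed to 113 to 135 TPM in the Pomc group and to 132 and 150 TPM in the Npy group. Relative to the diacylglycerol lipases, Cnr1 stood at 3.22 to 5.32 times their summed TPM in the Pomc group and at 0.684 and 0.634 times in the Npy group.

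The 8 members other than Cnr1 had a median log2 difference of -0.13, beside 0.02 over all tested genes. Of these 8, 3 were above 0 and 5 below 0, and in none were the groups separate, beside 15.9% of all tested genes. None was called by limma, beside 0.412% of all tested genes, and 0 of the 8 had an unadjusted p under 0.05, beside 7.36%. In this design an uncalled gene can still differ, since all intervals but that of Cnrip1 extend past a log2 difference of 1 in at least 1 direction.

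**Figure D3:**
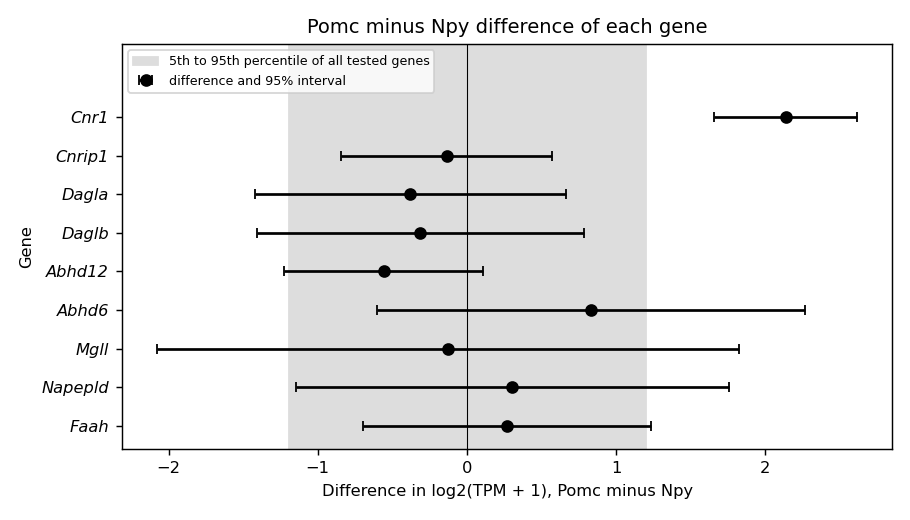
Pomc minus Npy difference of each gene on log2(TPM + 1), with 95% intervals from limma (4 Pomc and 2 Npy libraries). The grey band holds the 5th to 95th percentile of all tested genes, -1.20 to 1.20, and Cnr1 at 2.13 lies outside it while the other 8 genes lie inside.

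Markers of cell types and of neuronal transmitters also differed between the groups. Over all tested genes 0.412% were called (0.289% as higher in Pomc neurons). The groups did not overlap in 15.9% (8.05% with the Pomc libraries higher). Of 7 markers of ventromedial nucleus neurons, a neighbouring cell group of the hypothalamus, 6 were higher in every Pomc library than in both Npy libraries and 3 were called, Nr5a1, Adcyap1 and Nptx2. The 7 summed to 320 to 514 TPM against 30.8 and 38.8 TPM, with Adcyap1 listed at 0 in both Npy libraries. The remaining marker, Vgll2, overlapped at 0 to 7.62 TPM against 3.59 and 9.87 TPM (log2 difference -0.98 ± 0.93). The 3 glutamatergic markers summed to 56.9 to 67.6 TPM against 14.0 and 3.85 TPM. Slc17a6 was called, at 55.9 to 67.0 TPM against 5.85 and 1.43 TPM, while Slc17a8 was at 0.567 to 1.55 TPM against 4.01 and 2.42 TPM and Slc17a7 was listed at 0 in all 4 Pomc libraries. The 5 GABAergic markers summed to 112 to 175 TPM against 551 and 513 TPM, each was lower in every Pomc library than in both Npy libraries, and 1, Dlx1, was called. None was listed at 0 in a whole group. All 6 oligodendrocyte precursor markers were lower in every Pomc library than in both Npy libraries, at sums of 0.444 to 2.64 TPM against 228 and 207 TPM, with Olig2 and Cspg4 listed at 0 in all 4 Pomc libraries. All 6 were called, but 1 with a pseudocount of 0.1 TPM, 1, 2 and 2 without Pomc replicates 1, 2 and 3 and none without either Npy replicate, when 1 of the 6 was tested. Of the other called markers, Dlx1 was not called without either Npy replicate, Nptx2 was not called without Pomc replicate 1, 2 or 3, and Adcyap1 was not called without Npy replicate 2. Without a variance trend in the fit Pomc, Dlx1 and Nptx2 were not called, and without a filter Nptx2 and Olig1 were not. None of the 6 oligodendrocyte precursor markers would have passed the filter on low values without its Npy values, nor Adcyap1 without its Pomc values. Their calls are therefore not independent of the filter. Whether the markers of this paragraph come from the sorted neurons or from other cells was not tested, nor was their part in the Cnr1 difference. In sorted bulk RNA more cells with a transcript and more transcript per cell cannot be told apart.

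**Figure D4:**
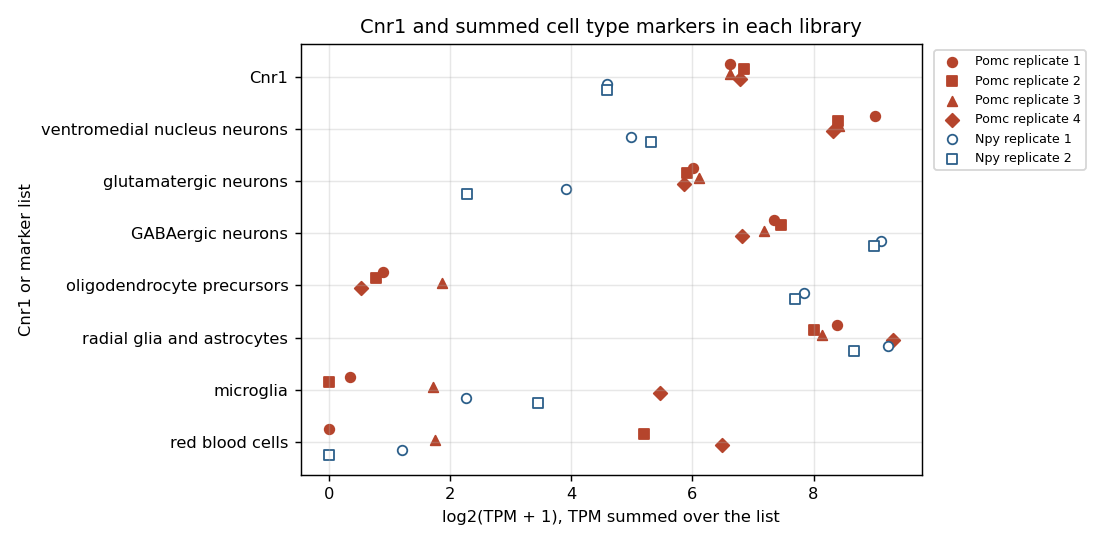
Cnr1 and the summed TPM of 7 marker lists in each library, as log2(TPM + 1), with filled red symbols for Pomc and open blue symbols for Npy libraries. Ventromedial nucleus and glutamatergic markers separate the groups in the same direction as Cnr1, GABAergic and oligodendrocyte precursor markers in the opposite direction, and Pomc replicate 4 has the highest microglia sum, 43.0 TPM.

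The 5 tested genes most like Cnr1 in pattern were taken by Pearson's r of log2(TPM + 1) over the 6 libraries. They were Dll4 (r = 0.997), a Notch ligand gene, Sox2 (0.995), a progenitor transcription factor gene, Epb4.1l4a (0.993), Mpped2 (0.993) and Nhlh2 (0.991), a helix-loop-helix factor gene of hypothalamic neurons. These 6 points form separate groups of 4 and 2, so r mostly describes the gap between the neuron types. Their levels were not alike. Sox2 stood at 210 to 294 TPM in the Pomc group and at 39.3 and 42.5 TPM in the Npy group, and Mpped2 at 91.3 to 102 TPM against 48.0 and 48.0 TPM. Dll4 stood at 10.1 to 12.3 TPM against 0.334 and 0.238 TPM, and passed the filter on low values only through its Pomc libraries. Nhlh2 stood at 90.3 to 161 TPM against 1.82 and 3.29 TPM, and Epb4.1l4a at 40.7 to 51.5 TPM against 19.6 and 19.8 TPM. Sox2 and Nhlh2 were called, while Dll4, Mpped2 and Epb4.1l4a were not (limma adjusted p = 0.0703, 0.109 and 0.181). The genes were chosen by their values, so nothing is read from these calls.

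The wider pathway was described from 8 further lists with 59 genes, of which 54 were in the table and 44 were tested. None of the 44 was called by limma in either direction, beside 0.412% of all tested genes, and 8 had an unadjusted p under 0.05 (18.2%, against 7.36% of all tested genes). The median log2 difference was 0.17 against 0.02 over all tested genes. Above 0 were 30 genes (68.2%, against 51.3% of all tested genes) and below 0 were 14. In 14 of the 44 (31.8%, against 15.9% of all tested genes) the groups did not overlap. The lists were chosen with earlier results of these data known, so nothing is read from these shares.

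Of 8 other receptors that respond to cannabinoids, 5 were matched in the table, and Gpr55, Gpr18 and Gpr119 were not analysed here. Cnr2, the gene of CB2, and Trpv1, the capsaicin channel gene, were listed at 0 in all Pomc libraries and in Npy replicate 2 and reached 0.703 and 0.718 TPM in Npy replicate 1. Trpa1 reached at most 1.25 TPM and Ppara at most 0.132 TPM. Trpv2, a channel of the same family as Trpv1, was the single tested member of this list, at 23.4, 7.81, 11.1 and 37.4 TPM in the Pomc group against 4.82 and 6.30 TPM in the Npy group. The groups did not overlap, but the Pomc libraries spanned a wide range and the log2 difference of 1.45 ± 0.66 was not called (limma adjusted p = 0.69).

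Several proteins through which CB1 acts had abundant transcripts in both neuron types. Of the 6 tested genes for proteins that bind, sort or desensitise CB1, none was called and the median log2 difference was 0.18. Gprasp1, which encodes a sorting protein of G protein-coupled receptors, stood at 452 to 502 TPM in the Pomc group and at 535 and 383 TPM in the Npy group, and Adrbk1, a receptor kinase gene, at 81.1 to 129 TPM against 78.3 and 98.4 TPM. Of the 9 G protein and ion channel genes, 8 were above 0 with a median of 0.37 and none was called. Gnai2, an inhibitory G protein subunit gene, stood at 536 to 667 TPM against 419 and 498 TPM, and Gnao1, a related subunit gene rich in neurons, at 370 to 411 TPM against 379 and 325 TPM. Gnai2 was separate between the groups by a small margin, whereas Gnao1 overlapped.

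Of the 7 tested phospholipase C beta and Gq-coupled receptor genes, 4 were above 0 and 3 below, with a median of 0.95, and none was called. Plcb4, a phospholipase gene that makes the diacylglycerol precursor, stood at 96.5, 144, 136 and 122 TPM in the Pomc group and at 73.6 and 44.9 TPM in the Npy group (log2 difference 1.08 ± 0.26, limma adjusted p = 0.221). Plcb1 stood at 28.6, 29.5, 41.8 and 36.8 TPM against 25.3 and 0.626 TPM. Its Npy libraries were thus far apart, and its log2 difference was 2.41 ± 0.90 (adjusted p = 0.568 by limma). Without Npy replicate 1 it was 4.42, with an adjusted p of 0.0114 by limma and a single Npy library left.

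Of the 8 tested genes that link the diacylglycerol lipases and CB1 to axon growth, 7 were above 0 with a median of 0.25, and none was called. Stmn2, a microtubule regulator gene of growing axons, stood at 1146, 722, 807 and 930 TPM in the Pomc group against 574 and 386 TPM in the Npy group, with separate groups and a log2 difference of 0.91 ± 0.24 (limma adjusted p = 0.28). Ncam1, an adhesion molecule gene, overlapped at 513 to 650 TPM against 572 and 364 TPM. Fgfr2, a fibroblast growth factor receptor gene, had the lowest adjusted p of the 44 genes and was chosen for naming after its values were seen. It stood at 15.6, 28.1, 19.5 and 25.9 TPM in the Pomc group against 3.20 and 2.83 TPM in the Npy group, a log2 difference of 2.50 ± 0.49 (limma adjusted p = 0.0967).

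The remaining enzymes and carriers gave no call. The 7 tested N-acylethanolamine enzymes had a median of -0.17, led in level by the phosphodiesterase genes Gde1 (69.3 to 125 TPM against 128 and 83.5 TPM) and Gdpd1 (48.6 to 91.8 TPM against 81.2 and 99.3 TPM). Among other lipid-metabolising enzymes, Ddhd2 stood at 30.5 to 72.4 TPM against 72.8 and 52.7 TPM and Abhd16a at 27.3 to 52.1 TPM against 57.4 and 53.6 TPM. Ptgs2, the gene of cyclooxygenase-2, was listed at 0 in all 6 libraries. Of the lipid carriers, Fabp5 stood at 474 to 921 TPM in the Pomc group against 409 and 388 TPM (log2 difference 0.67 ± 0.25, limma adjusted p = 0.575), and Fabp3 overlapped at 108 to 261 TPM against 153 and 229 TPM. Fabp7, also a radial glia marker and chosen for naming after its values were seen, went the other way at 1.61 to 61.6 TPM against 323 and 176 TPM (log2 difference -3.89 ± 0.997, limma adjusted p = 0.272).

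**Figure D5:**
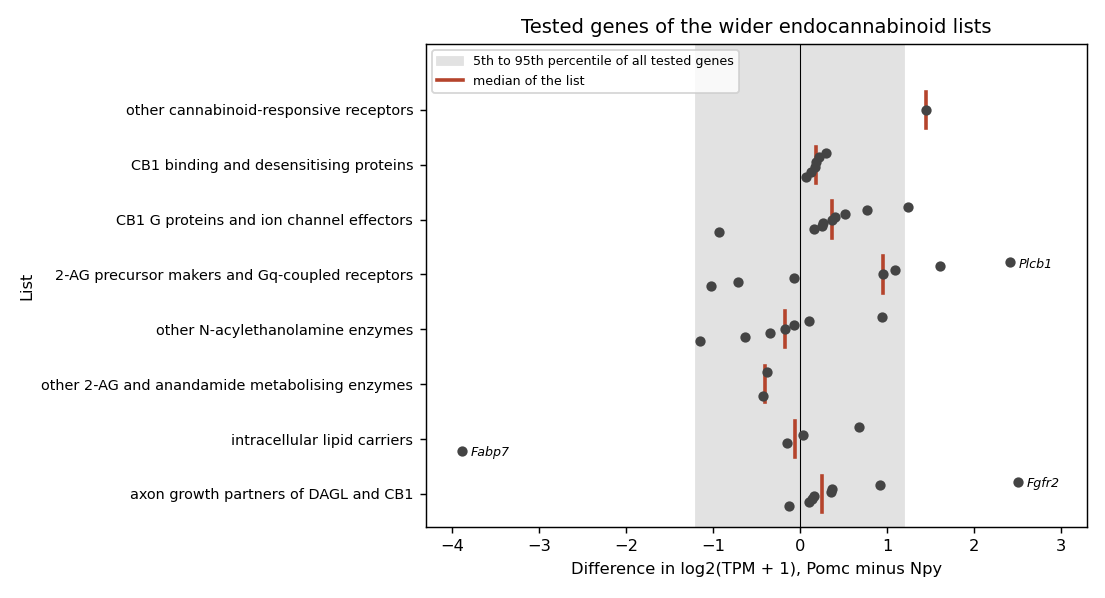
Pomc minus Npy differences on log2(TPM + 1) of the 44 tested genes of the wider lists, with red lines at the list medians and a grey band for the 5th to 95th percentile of all tested genes. Fgfr2 and Plcb1 are farthest to the Pomc side, at 2.50 and 2.41, and Fabp7 is farthest to the Npy side, at -3.89.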

How the data were processed

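The file deposited by the authors lists gene symbols and 1 value per sample. Its header gives no unit, and the deposited values were read as TPM because 6 of 7 columns sum to 1000000 and short RNA genes hold the highest values. Per the submitters' processing notes, HISAT2, edgeR 3.8 and mm10 were used, with no role given. The counter, annotation, strand setting and gene lengths: not given in the sources used here. All short RNA genes took 9.36 to 12.0% of the Pomc and 13.0 and 15.7% of the Npy libraries.

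The 4 rows of repeated symbols were left out. limma 3.58.1 (R 4.3.3) with a variance trend was fitted on log2(TPM + 1), which understates the change of low genes, for 4 Pomc and 2 Npy libraries without a block. The fit was tested on simulated data of the same 4 against 2 design with 13845 genes: it called 38%, 82%, 98% and 100% of 50 genes each with log2 changes of 1, 2, 3 and 4, and 5 unchanged genes. The changed genes were drawn from those with a mean log2(TPM + 1) above 3, and each simulated gene had the spread of the trend at its level. These rates therefore do not cover low genes such as Mgll and Napepld, or genes whose spread lies off the trend. Members and lists were chosen with earlier results of these data known. Named genes are all members, called list genes or otherwise the 2 highest of each wider list. List genes at 0 in all libraries and the 5 most like Cnr1 are also named. Cnr2, Trpv1, Ppara, Fgfr2 and Fabp7 were named after their values were seen. Kcnj6, Plcb3, Chrm3, Ptpn22 and Pla2g16 were named because 1 Pomc library stood out. Alternatives changed the pseudocount, filter, scaling, variance prior, replicate block and libraries. Of 11 marker lists, endothelial and pericyte markers summed to 1.31 to 11.7 TPM in the Pomc and 3.44 and 8.71 TPM in the Npy libraries, and fibroblast and meningeal markers to 2.31 to 10.2 TPM and 1.33 and 4.995 TPM. Coordinates are from GENCODE M21 (GRCm38).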

Additional observations from a re-analysis of the deposited data

Results flagged for a closer look

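In 63 of the genes described here the Pomc library farthest from the others was set against the range of the 4 Pomc libraries, and 9 genes stood out, where chance gives about 1 in 20. Among the members, Cnrip1 was at 114 TPM in Pomc replicate 1 while replicates 2 to 4 held 55.5 to 63.7 TPM, and Mgll was at 7.72 TPM in Pomc replicate 4 while replicates 1 to 3 held 0.578 to 1.18 TPM. From the wider lists, 3 more stood out in Pomc replicate 4: the potassium channel gene Kcnj6 at 14.0 TPM against 4.16 to 4.78 TPM, the phospholipase gene Plcb3 at 31.6 TPM against 14.1 to 17.0 TPM, and the muscarinic receptor gene Chrm3 at 4.51 TPM against 0 to 0.743 TPM. Trpa1 was at 1.25 TPM in replicate 1 against 0 to 0.180 TPM. The remaining 3 are listed at 0 in the other Pomc libraries, so that any value above 0 is enough: Ptpn22 at 0.419 TPM and Pla2g16 at 0.253 TPM in replicate 1, and Ppara at 0.132 TPM in replicate 3. These 3 show nothing about the library.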

How the results depend on the processing

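The Cnr1 difference stayed between 1.97 (pseudocount of 5 TPM) and 2.18 in all 15 alternatives, and between 2.09 and 2.17 when 1 library was left out. It was called in 14 of them, and not with the replicate number as a block (log2 2.15, limma adjusted p = 0.107). In that fit only the libraries of the 2 shared numbers inform the difference. Equal numbers gave deviations from the group means with correlations of -0.04 and -0.03 over genes for the 2 shared numbers. With 2 Npy libraries the Npy deviations mirror each other, so these correlations are not separate and cannot exclude pairs. Equal numbers were not taken as pairs because the sources used here do not link the libraries. Of the 9 members, 5 kept their sign in every alternative that tested them. Mgll changed sign without Pomc replicate 1 or 3 or Npy replicate 1, Daglb and Napepld without Npy replicate 2, and Cnrip1 with the block. No other member was called in any alternative (lowest adjusted p 0.283, Abhd12 with all 7 columns, by limma). Mgll and Napepld were not tested with a filter of 5 TPM in 3 libraries.

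Of all tested genes 57 were called, 37 with a pseudocount of 0.1 TPM, 33 without a filter, 12 with the replicate block and 205 with Npy replicate 3 as a further column, which adds no measurement. Without 1 library the count was 22 to 69: 31, 36 and 29 without Pomc replicates 1, 2 and 3, and 22 without Npy replicate 2. Of the wider lists none was called, except 2 genes (Plcb4 and Fgfr2) with all 7 columns, and 0 to 1 (Plcb1, without Npy replicate 1) with a library left out. Of the called markers, only Nr5a1 and Adcyap1 were called with the replicate block. The cause of these changes was not tested. Depth is not known from the table, and 2 Npy libraries limit what can be called.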
